A study of Mus musculus with 6 samples.

Results

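Merkel cells were followed in newborn mouse epidermis through 10 genes: the keratins Krt8, Krt18, Krt19 and Krt20, the transcription factors Atoh1, Isl1, Sox2, Insm1 and Pou4f3, and the mechanically gated ion channel Piezo2. They were chosen by name, as array probes whose RefSeq accession maps to 1 of these symbols. All 10 were on the array, through 12 probes, among 18217 genes with a named probe; 5 of the 10 (Krt8, Krt18, Krt19, Krt20 and Piezo2) were bright enough to be tested, among 12824 genes tested. RNA was measured on 6 one-colour Agilent arrays, 1 per mouse. The 3 wild-type (WT) samples and the 3 AhRCA samples were epidermis of mice at postnatal day 0, on a background labelled as mixed. AhRCA mice carry a transgene for an aryl hydrocarbon receptor (AhR, a transcription factor normally switched on by ligands) that is active without ligand, driven by the keratin 14 promoter of basal keratinocytes; WT mice lack the transgene. Each of 3 samplings supplied 1 AhRCA mouse and 1 WT littermate, so that replicate numbers are litter pairs.

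Merkel cells are touch-sensing epithelial cells of the basal epidermis that contact sensory nerve endings. They arise from epidermal progenitors that switch on the transcription factor Atoh1, and they build their cytoskeleton from the simple epithelial keratins Krt8, Krt18 and Krt20 in place of the Krt5 and Krt14 filaments of keratinocytes. Krt8 is a type II keratin and Krt18, Krt19 and Krt20 are type I keratins, and filaments form from pairs of a type II and a type I chain. Piezo2 opens when the membrane is stretched and gives the cells their mechanical response.

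The 250 bases upstream of the annotated start are given for the 3 keratins with the clearest separation between the genotypes, because AhR acts at DNA through the core letters GCGTG. The sequences are from RefSeq on GRCm38.p6, written 5′ to 3′ on the strand of the gene, with GCGTG in capitals. The windows are chr15:102004343-102004592 on the minus strand for Krt8, chr15:102027966-102028215 on the plus strand for Krt18 and chr11:99438154-99438403 on the minus strand for Krt20.
Krt8: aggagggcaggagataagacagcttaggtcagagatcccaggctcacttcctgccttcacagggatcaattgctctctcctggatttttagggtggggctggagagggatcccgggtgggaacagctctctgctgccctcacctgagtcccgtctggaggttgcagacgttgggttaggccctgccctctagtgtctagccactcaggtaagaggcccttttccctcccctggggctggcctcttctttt
Krt18: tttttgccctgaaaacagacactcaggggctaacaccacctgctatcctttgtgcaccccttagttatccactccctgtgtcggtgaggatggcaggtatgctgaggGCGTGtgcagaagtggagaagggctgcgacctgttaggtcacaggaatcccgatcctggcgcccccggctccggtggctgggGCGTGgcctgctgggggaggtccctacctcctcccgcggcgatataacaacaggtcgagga
Krt20: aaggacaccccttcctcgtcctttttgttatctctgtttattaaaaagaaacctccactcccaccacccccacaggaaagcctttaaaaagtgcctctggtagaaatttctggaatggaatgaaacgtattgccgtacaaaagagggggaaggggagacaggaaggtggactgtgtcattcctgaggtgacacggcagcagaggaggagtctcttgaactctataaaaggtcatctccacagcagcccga
Promoter entries matched 6 of the 10 genes (these 3, Atoh1, Isl1 and Sox2). GCGTG, searched on both strands, was found in 28.2% of all 32851 windows of this length and in 2 of the 6: Krt18 held 2 matches, from -143 to -139 and from -61 to -57 relative to the start, and Atoh1 held 3. The longer form TNGCGTG, which contains GCGTG, was found in 4.1% of windows and in Atoh1 alone of the 6. CAGCTG and CAGATG, E-box letters of the kind bound by factors such as Atoh1, were in 13.0% and 14.4% of windows; CAGCTG had 1 match, in Isl1, and CAGATG had none in these 6 windows.

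Values are log2 spot intensities minus the 75th percentile of the same array, so that 0 is the level of a fairly bright probe. A probe counts as measured on an array where the scanner software marks it well above background; the dimmest probes so marked lay between -5.23 and -4.77, or 17.9 and 25.5 in intensity units. The epidermal keratins Krt5, Krt14, Krt1 and Krt10 were well above background on all 6 arrays and differed between genotypes by between -0.05 and 0.02. Cyp1a1, the xenobiotic-metabolizing enzyme used here to check AhR activity, rose by 7.07 ± 0.58 (SE, n = 3 per group, adjusted p = 0.00470). Between 56.2% and 61.3% of spots per array were well above background and 0 were saturated. Replicates 1 and 2 of both genotypes shared slide 1 and replicate 3 of both lay on slide 2. Xist stood between 4.43 and 4.66 on slide 1 and at -4.20 and -7.14 in WT 3 and AhRCA 3, whereas the Y-linked Ddx3y stood at 1.65 and 1.43 in those 2 samples; slide, litter pair 3 and male sex therefore cannot be told apart, but each is balanced between genotypes.

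Of the 4 keratins, each measured on all 6 arrays, 2 fell in AhRCA epidermis (Krt20 and Krt8) and 0 rose (limma, Benjamini-Hochberg; 3 lower and 0 higher at an unadjusted p under 0.05). Over all genes tested 2.18% were called, 1.65% as lower and 0.53% as higher. At an unadjusted p under 0.05 (limma) 971 of the 12824 genes tested were lower and 592 were higher. The median difference of the 4 was -1.74, against 0.00129 over all genes tested. Piezo2 was the fifth member tested and also passed as lower, but its probe met the filter only through the WT arrays, so its call adds nothing to these counts. In Krt8, Krt18 and Krt20, 3 of the 4 keratins, every WT array lay above every AhRCA array, a pattern that 8.84% of genes showed. In 0 of the 4 did every AhRCA array lie above every WT array, which 7.52% of genes showed. Piezo2 is left out of this count for the reason just given. Counted with Piezo2, the 3 calls became 1 without WT replicate 2 and 1 on slide 1 alone, and 2 without any 1 of the other 5 arrays; Krt20 was called in each of these settings. A fit blocked on litter pair called 2 of the 5 (Krt20 and Krt8) and 3.88% of all genes, 2.81% as lower and 1.07% as higher. In whole epidermis fewer Merkel cells, less of a transcript per Merkel cell and less of it from other cells that express these genes cannot be told apart.

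**Figure D1:**
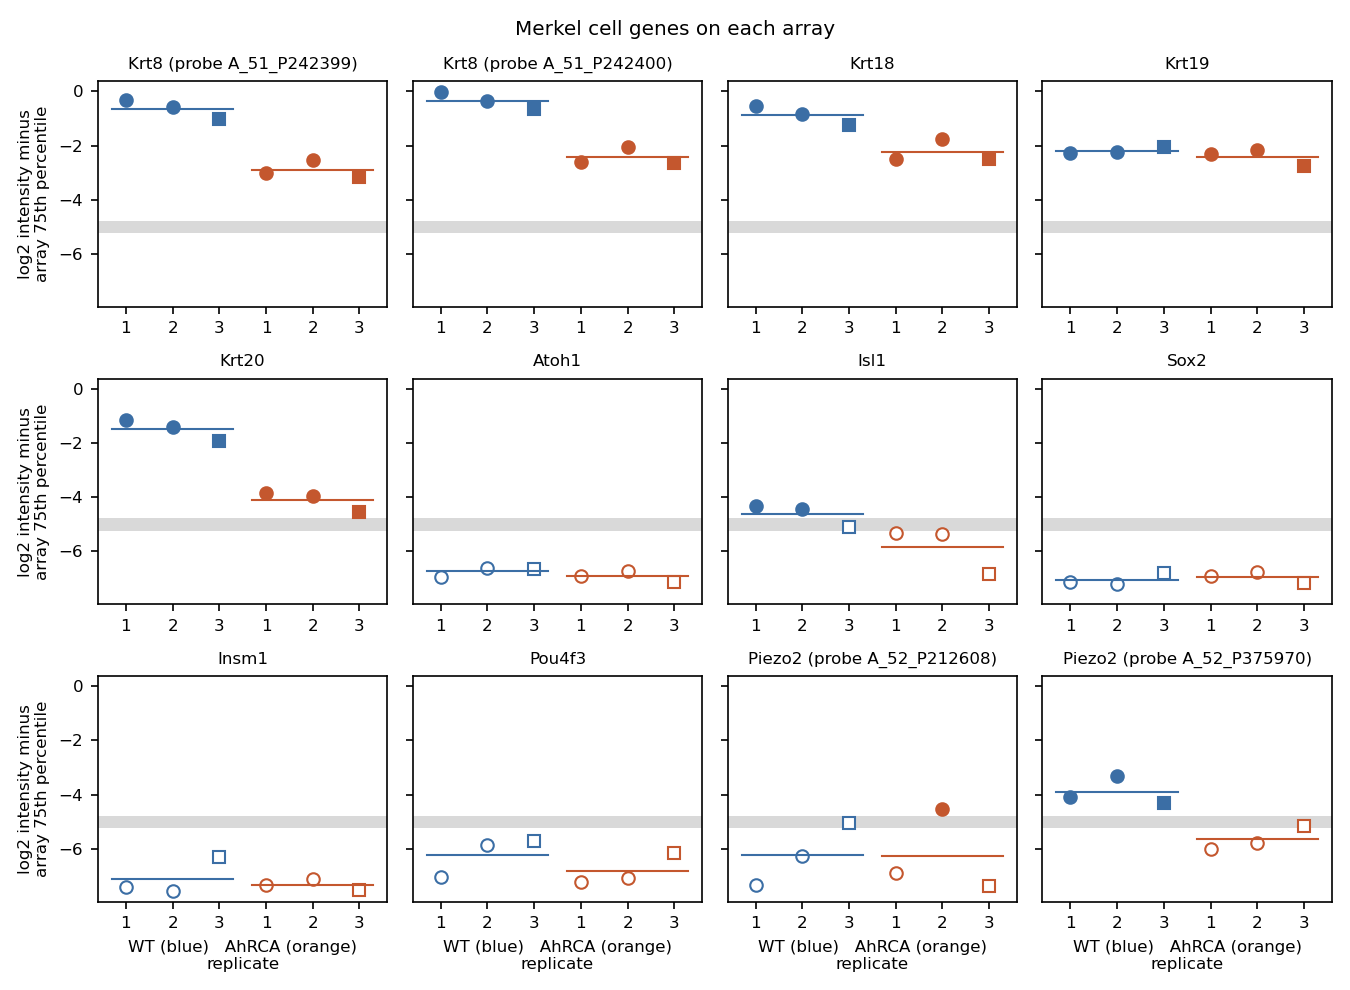
Log2 intensity minus the array's 75th percentile (vertical axis) of the 12 probes of the 10 genes on each array (horizontal axis, replicate number; WT blue, AhRCA orange, squares for slide 2). Filled points are well above background, open points are not, lines are group means, and the grey band spans the dimmest values marked well above background; both Krt8 probes, Krt18 and Krt20 separate the genotypes on filled points, whereas Atoh1, Sox2, Insm1 and Pou4f3 have no filled point.

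Krt20, the keratin most restricted to Merkel cells in skin, gave the largest difference of the 10 genes in the main values, though not with normexp background correction. Its values were -1.17, -1.41 and -1.92 in WT 1 to 3 and -3.83, -3.96 and -4.54 in AhRCA 1 to 3, from intensities of 323, 252 and 189 in WT and 48.0, 40.2 and 32.4 in AhRCA. All 6 were well above background, and the lowest WT value lay above the highest AhRCA value. The AhRCA mean was lower by a log2 difference of -2.61 (SE 0.26, n = 3 per group, 95% interval from -3.23 to -1.99, adjusted p = 0.00820, limma), which is 6.12-fold. The difference within litters was -2.66, -2.55 and -2.62 in pairs 1 to 3, closer together than the samples of either genotype. With normexp background correction the Krt20 difference was -1.44 (adjusted p = 0.00848, limma). That of Krt8 was then larger, at -1.60 (adjusted p = 0.00708, limma), and that of Krt18 was -0.99.

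Krt8, the type II keratin of Merkel cells, was read by 2 probes. The brighter stood at -0.02, -0.35 and -0.65 in WT 1 to 3 and at -2.60, -2.04 and -2.64 in AhRCA 1 to 3. The other stood at -0.33, -0.59 and -1.02 in WT and at -3.03, -2.52 and -3.16 in AhRCA. Both kept the same order of arrays within WT, were well above background throughout and left a gap of more than 1 log2 unit between the groups. Krt8 fell by 2.08 on the brighter probe (SE 0.23, n = 3 per group, 95% interval from -2.63 to -1.54, adjusted p = 0.0108, limma), a 4.24-fold difference; the other probe gave -2.25. The call was lost without WT replicate 2 (adjusted p = 0.0504) and on slide 1 alone (0.0595), where the difference was -2.13.

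Krt18, the type I partner of Krt8 in simple epithelia, was lower on every AhRCA array but missed the threshold. Its values were -0.52, -0.85 and -1.22 in WT 1 to 3 and -2.50, -1.78 and -2.49 in AhRCA 1 to 3, without overlap. The difference was -1.39 ± 0.26 (SE, n = 3 per group, unadjusted 95% interval from -2.01 to -0.76, adjusted p = 0.0550, limma). Blocked on slide its adjusted p was 0.0331, in a fit that called 3 of the 5 members and 4.2% of all genes (2.91% as lower); it was 0.0497 when testing was limited to probes measured on every array, and 0.0509 blocked on litter pair. AhRCA 2, the highest AhRCA array for Krt18, was also the highest for both Krt8 probes. Both genes have processed pseudogenes, and whether their probes also read those was not analysed here.

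Krt19, a type I keratin that Merkel cells share with hair follicle stem cells and other epithelia, was close to level between the genotypes. It stood at -2.26, -2.25 and -2.07 in WT 1 to 3 and at -2.29, -2.17 and -2.75 in AhRCA 1 to 3, with overlapping groups. The difference was -0.21 ± 0.17 (SE, n = 3 per group, 95% interval from -0.62 to 0.20, adjusted p = 0.865, limma). On slide 1 it was 0.023, and in the pair on slide 2 it was -0.68. That contrast between slides had an unadjusted p of 0.00893 and an adjusted p of 0.492 over all genes (limma, genotype by slide). The interaction was called in 1 gene (0.0078% of those tested), Olfr638, named after its values were seen, and in 0 of the 5 members (limma; 1 at an unadjusted p under 0.05, Krt19).

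The keratins were also compared with each other within each array. Krt19 minus Krt20 had the largest value of the 6 pairs, 2.40 higher in AhRCA than in WT. The Krt8 minus Krt18 difference was -0.70 in AhRCA relative to WT and Krt8 minus Krt19 was -1.87. For Krt8 minus Krt20 it was 0.53 (exact permutation p = 0.20). With normexp correction Krt8 (-1.60) differed more than Krt20 (-1.44), so the order of these 2 depends on the background correction. For the other 5 of the 6 keratin pairs compared the exact permutation test over arrays (two-sided) gave p = 0.10, the smallest value that 3 against 3 arrays allow, and 0.12 after adjustment over the 6; no pair could therefore reach 0.05.

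Piezo2 was read by 2 probes that disagreed. On the tested probe it stood at -4.08, -3.32 and -4.29 in WT 1 to 3, all well above background, and at -6.00, -5.78 and -5.17 in AhRCA 1 to 3, where no array was. Set against the dimmest values marked well above background, this probe was at least 2.12-fold lower in AhRCA. That bound rests on the single dimmest marked probe of each array and was not itself tested. The difference of the measured means, -1.75 (adjusted p = 0.0474, limma), rests on AhRCA values below background, and the probe was tested only because WT lay above it. The difference within litters was -1.92, -2.46 and -0.88. The other probe was well above background on 1 array only, AhRCA 2, at -4.52, and its group means differed by -0.03 with overlapping groups. The call was lost with the litter pair (adjusted p = 0.0672) or the slide (0.0596) as a block, under quantile normalization (0.0590), with no filter on dim probes (0.103), on slide 1 alone (0.0733) and without any 1 of the 6 arrays (from 0.0627 to 0.176). With normexp correction the difference was -0.44 (adjusted p = 0.198).

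Of the transcription factors only Isl1, a LIM homeodomain factor of Merkel cells and sensory neurons, gave a signal above background. Its single probe was printed 10 times on each array. Of the 10 spots 10, 10 and 2 were well above background in WT 1 to 3 and 1, 0 and 0 in AhRCA 1 to 3. The mean over spots, outlier spots left out, was -4.33, -4.44 and -5.10 in WT and -5.33, -5.34 and -6.82 in AhRCA, with SDs between 0.15 and 0.44 over spots of an array. Every WT mean lay above every AhRCA mean, and on each slide the WT arrays were the brighter, but both arrays of slide 2 were dimmer than those of their genotype on slide 1. Isl1 was measured on 2 WT arrays and thus stayed outside the main test. With no filter on dim probes its difference of -1.21 had an unadjusted p of 0.0370 and an adjusted p of 0.488 (limma; every probe of the array, of which 0.521% were called, 0.382% as lower). Set against the dimmest marked values Isl1 was 1.29-fold lower in AhRCA. This is not a strict bound, because the WT mean includes WT 3, which was itself not well above background.

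**Figure D2:**
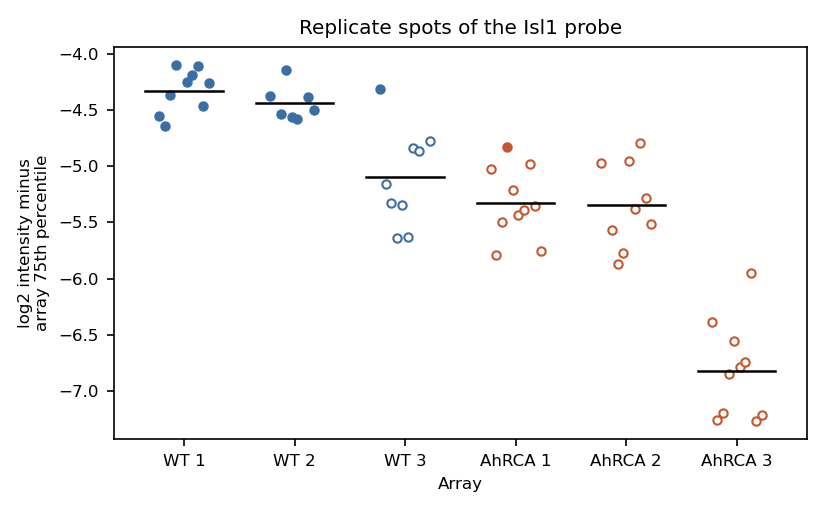
Log2 intensity minus the array's 75th percentile (vertical axis) of the replicate spots of the Isl1 probe on each array (horizontal axis), with outlier spots left out; filled points are well above background and lines are means over the spots of an array. All spots of WT 1 and WT 2 are filled, and AhRCA 3 lies lowest, with a mean of -6.82.

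Atoh1, the factor that starts the Merkel cell fate, was not well above background on any array, with intensities between 5.38 and 7.20. The same held for Sox2, which acts with Isl1 on Atoh1 (4.57 to 6.42), for Insm1, a zinc finger factor of neuroendocrine cells (3.54 to 9.02), and for Pou4f3, a POU factor downstream of Atoh1 in hair cells and Merkel cells (4.53 to 13.7). WT and AhRCA values overlapped in all 4, and no fold is given where both groups lie below background. The arrays therefore carry a signal for the keratins in both genotypes. The tested Piezo2 probe and the Isl1 probe counted as well above background on WT arrays only (3 and 2). Atoh1, Sox2, Insm1 and Pou4f3 had no reading in either genotype.

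**Figure D3:**
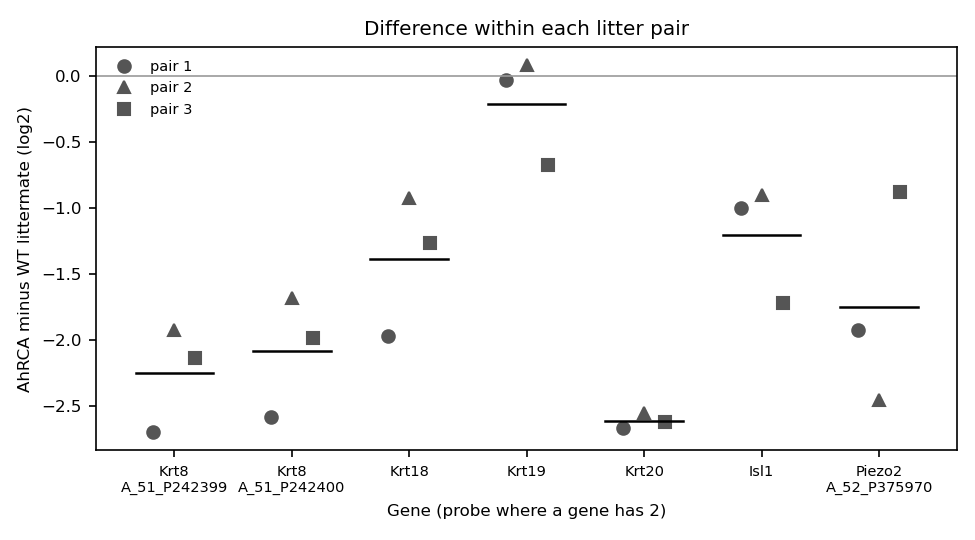
AhRCA value minus that of the WT littermate (vertical axis, log2) in each of the 3 litter pairs for the probes of 5 genes tested, apart from the dim Piezo2 probe, and for Isl1 (horizontal axis); lines are means of the 3 pairs. The pairs of Krt20 lie between -2.66 and -2.55, those of Piezo2 between -2.46 and -0.88, and Krt19 straddles 0.

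Other genes of the Merkel cell, mostly of its synaptic and neuroendocrine machinery, were followed as a list of 46, of which 45 were on the array, 21 were not well above background on any array and 15 were tested. Of these 15, 1 fell and 0 rose (limma; 4 lower and 0 higher at an unadjusted p under 0.05). The median was -0.42 (-0.33 over the 12 measured on all 6 arrays). Of the 15 differences 12 were negative, against 6361 of 12824 over all genes tested. The 1 called gene was Syt7, a calcium sensor of vesicle release, at -2.18, -1.93 and -2.01 in WT and -3.51, -3.35 and -3.20 in AhRCA. It fell by 1.31 (SE 0.13, n = 3 per group, adjusted p = 0.00809), and kept its call in all 16 alternatives run on it. Blocked on litter pair 3 of the 15 fell, adding Rab3b, a vesicle GTPase (-0.84, adjusted p = 0.0297), and Penk, the precursor of enkephalin peptides found in Merkel cells (-0.71, adjusted p = 0.0378). Penk was bright, with a WT mean of 4.91 against -0.34 for Krt8. Penk and Chga made up between 74.8% and 82.9% of the summed linear level of the list. Which cells of the epidermis supply the Penk signal was not tested. Chgb, a dense-core granule protein named after its values were seen, differed by -0.71 ± 0.16 (adjusted p = 0.0869), with every WT array above every AhRCA array.

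The signals that specify Merkel cells and supply their nerve endings did not, as a list, share this direction. Of 31 such genes on the array 29 were tested, 0 fell and 2 rose (limma; 1 lower and 6 higher at an unadjusted p under 0.05), and the median was 0.12. With every kept probe tested on its own, the list had 1 lower and 1 higher call. Bdnf, a neurotrophin, stood at -3.67, -4.17 and -4.31 in WT and -2.65, -2.34 and -2.37 in AhRCA and rose by 1.60 ± 0.19 (adjusted p = 0.0139). Its call was lost on slide 1 alone (adjusted p = 0.0880) and when AhRCA replicate 2 (0.0746), WT replicate 2 or AhRCA replicate 3 was left out, and with normexp correction its difference was 0.84. Ntf3, the neurotrophin of slowly adapting touch afferents, rose by 0.97 ± 0.17 (adjusted p = 0.0480), a call lost under 14 of 16 alternatives, the removal of any 1 array among them; blocked on litter pair its adjusted p was 0.0770. Shh, which drives touch dome formation, had 0.16 ± 0.17, Ezh2, a Polycomb enzyme that holds back Merkel cell genes in keratinocytes, -0.05 ± 0.16, and Hes1, a Notch target, 0.56 ± 0.14 (adjusted p = 0.132); these 3 were named after their values were seen. Of 6 markers of the touch dome keratinocytes that surround Merkel cells 0 passed (limma; 0 at an unadjusted p under 0.05), with a median of -0.10. The 2 farthest from 0 among these 6 were Sostdc1, a secreted BMP and Wnt antagonist (0.25), and Gli1, a target of hedgehog signalling (-0.24).

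Krt8 and Krt18 also mark simple epithelia and the periderm, the transient outer layer of embryonic skin. Of 6 tested genes of simple epithelia and periderm 1 fell and 0 rose (limma; 3 lower and 0 higher at an unadjusted p under 0.05), with a median of -0.75. Cldn3, a tight junction protein, fell by 1.16 (SE 0.18, n = 3 per group, adjusted p = 0.0322), a call lost on slide 1 alone (0.146), with no filter (0.0777) and, WT replicate 1 apart, when any 1 array was left out (up to 0.117). Krt7, a type II keratin of simple epithelia picked with its value known, differed by -0.49 ± 0.17 (adjusted p = 0.295). Krt6a, a periderm keratin also picked with its value known, differed by -1.19 ± 0.50 (adjusted p = 0.409). The summed linear level of the 6 ranged from 202 to 219 in WT and from 189 to 203 in AhRCA, but Krt23 and Krt13 made up between 74.1% and 94.3% of it, so that the sum says little of the other 4. Whether periderm or other simple epithelium takes part in the Krt8 and Krt18 differences was not tested.

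Some sebaceous gland and hair follicle genes were also lower in AhRCA, whereas most keratinocyte, melanocyte and Schwann cell markers did not pass. Of 7 tested sebaceous gland genes 5 fell and 0 rose (limma; 6 lower and 0 higher at an unadjusted p under 0.05), among them Soat1 (-2.34), which esterifies sterols, the lipid droplet protein Cidea (-2.19), Pparg (-1.85), which directs sebocyte differentiation, the desaturase Scd1 (-1.37) and Awat2 (-1.17), a wax synthase. The 5 calls became 2 without WT replicate 2, and 3 without AhRCA replicate 1, without AhRCA replicate 2 or on slide 1 alone; Soat1 and Cidea were called in each alternative run. The summed linear level of the 7 ranged from 18.5 to 23.9 in WT and from 7.79 to 9.41 in AhRCA. Cidea and Prdm1 made up between 72.0% and 82.1% of it. Of 14 hair follicle genes 2 fell and 0 rose (7 lower and 1 higher at an unadjusted p under 0.05), and the 2 were Krt75 (-1.42, adjusted p = 0.0475), a companion layer keratin, and Lgr5 (-0.83, adjusted p = 0.0199), a stem cell receptor. The count was 7 blocked on litter pair, 1 without WT replicate 3, and 0 without WT replicate 2 or any 1 AhRCA array, under median scaling, with no filter and on slide 1 alone; Krt75 lost its call without any 1 array. The summed level ranged from 262 to 469 in WT and from 131 to 199 in AhRCA, with between 48.0% and 62.3% of it from Krt71 and Tchh. At an unadjusted p under 0.05 (limma) 4 of 8 Langerhans cell genes were lower, Cd207 among them, and 1 was higher. After adjustment Cd207 passed as lower (adjusted p = 0.0206, limma), on a probe that met the filter only through WT. Set against the dimmest marked values it was at least 3.09-fold lower, a bound that was not itself tested. With normexp correction its difference was -0.75. The Cd207 call was lost without WT replicate 1 or 2, without AhRCA replicate 1 or 2, and with no filter (up to 0.0879). Adgre1 rose by 0.67 (adjusted p = 0.0321), a call lost without any 1 of the 6 arrays (up to 0.160). Blocked on litter pair 3 Langerhans cell genes fell. The sums of the 8 ranged from 12.2 to 17.7 in WT and from 8.92 to 11.9 in AhRCA. Between 61.1% and 66.2% of each came from H2-Ab1 and Epcam, which is also in the list of other Merkel cell genes. Of 10 basal and spinous keratinocyte genes 1 fell, Krt15 (-0.72), and 0 rose, and 0 fell blocked on litter pair; the sums ranged from 1884 to 2026 and from 1680 to 2009. Melanocyte and Schwann cell lists had 0 calls in 6 and 7 genes tested (limma; 0 and 1 at an unadjusted p under 0.05) and overlapping sums; farthest from 0 were Mitf (-0.46) and Tyrp1 (0.33), and Pmp22 (-0.54) and Egfl8 (-0.21). Dct and Pmel made up between 95.6% and 96.1% of the melanocyte sums. Mpzl2 and Mbp made up between 92.1% and 94.7% of the Schwann cell sums. Fibroblast genes had 0 calls in 7 (limma; 2 at an unadjusted p under 0.05), with Col1a2 at -1.19 (adjusted p = 0.0622, and 0.0464 blocked on slide) and Col3a1 at 0.85. Of 9 sensory neuron genes 6 were below background throughout and 0 of 3 passed (limma; 1 at an unadjusted p under 0.05), with Avil at -0.89 (adjusted p = 0.0526; the list had 1 call among probes measured on every array) and Pou4f1 at 0.09. Endothelial and skeletal muscle lists had 0 calls in 1 and 3 genes tested (limma; 0 and 1 at an unadjusted p under 0.05), with Vwf at -0.07, Myh8 at -1.23 and Acta1 at -0.08; blocked on litter pair Myh8 fell (adjusted p = 0.0444). The part of the other compartments in the Merkel cell differences was not tested.

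**Figure D4:**
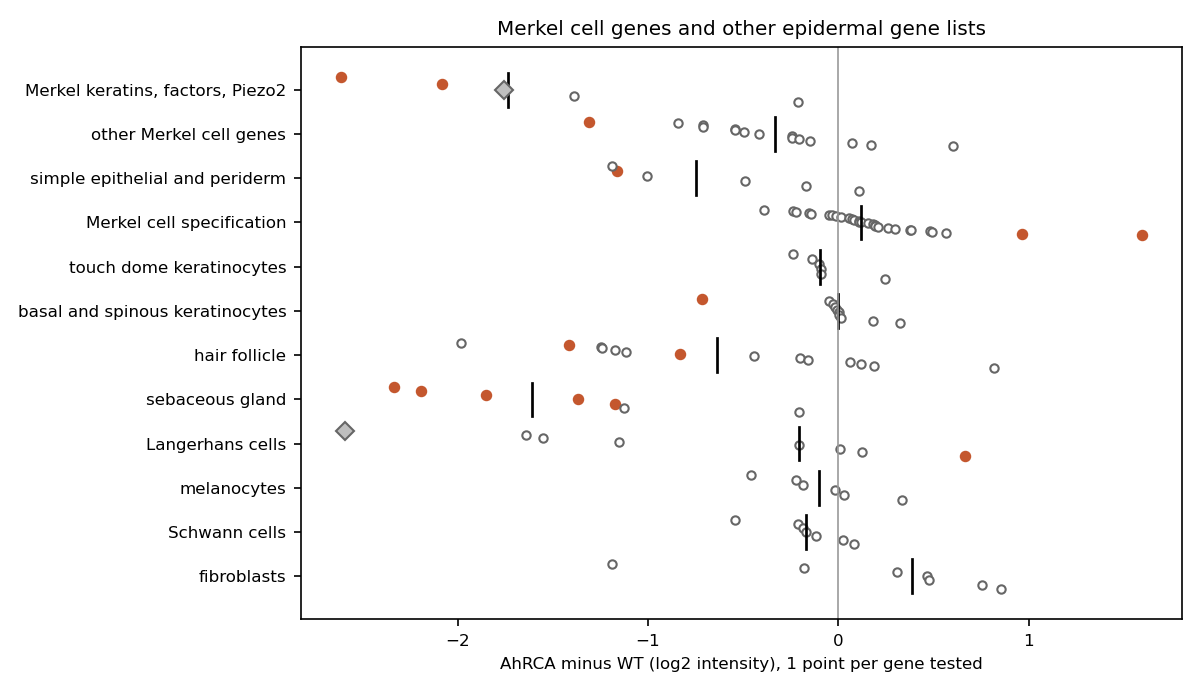
AhRCA minus WT difference in log2 intensity (horizontal axis) of each tested gene in 12 lists (rows); orange points passed the threshold, open points did not, grey diamonds (Piezo2 and Cd207) were below background on all AhRCA arrays, and vertical bars are medians of the genes measured on all 6 arrays. The bar lies at -1.74 for the Merkel cell row, -1.61 for the sebaceous gland row and 0.12 for the Merkel cell specification row.

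The genes whose profile over the 6 arrays came closest to Krt8 and Krt20 were taken by the root mean square difference after each gene was centred on its mean. For Krt8 these were Maob, a monoamine oxidase, Fbln2, a matrix protein, Sardh, Emid1 and Ramp1, a receptor partner of the CGRP receptor, with differences between 0.21 and 0.23 log2 units. For Krt20 they were Cd207, which encodes langerin of Langerhans cells, Col9a3, Soat1, Sardh and Cidea, with differences between 0.20 and 0.36. Cd207 was below background on every AhRCA array, so its place in this order rests in part on values that were not measured. Soat1 and Cidea belong to the sebaceous gland list and Cd207 to the Langerhans cell list. Cd207 aside, their AhRCA minus WT differences ranged from -2.44 (Col9a3) to -1.66 (Ramp1); since Krt8 and Krt20 separate the genotypes, choosing profiles like theirs fixes this direction. Among them Fbln2 lost its call without any 1 array, and Maob and Ramp1 without WT replicate 2.

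Genes beside the members on the chromosome were compared by position alone. Krt8 and Krt18 are neighbours among tested genes; next to them Krt78 had a difference of -0.05 ± 0.14 and Eif4b 0.18 ± 0.19. The nearest tested neighbours of Krt20 were Krt12 (-1.36 ± 0.41, adjusted p = 0.202, limma) and Krt23 (0.11 ± 0.14). Beside Krt19 lay Krt15, a basal keratin that fell by 0.72 (adjusted p = 0.0460, lost under 10 of 16 alternatives, blocking on litter pair (0.0534) and leaving out any 1 array but WT 1 among them), and Krt9 (-0.64 ± 0.18, adjusted p = 0.164). Napg and Txnl1, the neighbours of Piezo2, had 0.04 and -0.02.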

How the data were processed

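RNA of 6 epidermis samples was labelled with Cy3, per the labels. Per the file headers, the authors deposited Feature Extraction (Agilent, version 10.7.3.1) intensities per spot, background-subtracted and spatially detrended without scaling between arrays. The authors' deposited table of log2 values matched these intensities in array differences (slope 1.00), so its scale is log2 and its direction that of the intensities; its column medians lay between -0.071 and 0.083, and its per-probe centring is inferred. It served as an alternative.

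Control and outlier spots (56 to 94 per array) were left out and replicate spots averaged; a replicated probe counted as well above background where at least 50% of its spots were. Accessions were matched to symbols through RefSeq GRCm38.p6: of 41174 probes 26690 had 1 symbol, 0 several and 14484 none. Probes well above background on at least 3 arrays were kept, the brightest standing for its gene. Genotypes were compared with limma 3.58.1 (R 4.3.3; lmFit, eBayes, 2 group means, two-sided, Benjamini-Hochberg over all genes, threshold 0.05; SE from the moderated variance), tested on simulated data. A lower bound sets the brighter group's mean against, per array, the higher of the probe's value and the dimmest well-above-background value. Littermates share replicate numbers, per the series design, and their deviations correlated at 0.34, 0.37 and 0.55, other pairs at -0.42 to 0.19. Of the genes named above, leaving out 1 array also ended the calls of Lgr5 (each array but WT 3), Pparg (WT 2 or AhRCA 2), Scd1 (WT 2, AhRCA 1 or AhRCA 3) and Awat2 (WT 2, AhRCA 1 or AhRCA 2).

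Named genes were the 10 members, up to 6 called genes per list (or the 2 with the largest difference), 5 profile neighbours each of Krt8 and Krt20, and Krt5, Krt14, Krt1, Krt10 and Cyp1a1. The members and lists were chosen with earlier results of these data known. The number of arrays limits the precision.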

Additional observations from a re-analysis of the deposited data

How the results depend on the processing

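Krt20 stayed lower and past the threshold in all 17 alternatives, and Krt8 in 15 of 17 (not on slide 1 alone or without WT replicate 2). Krt18 stayed lower in all 17 and passed in 2; Piezo2 stayed lower in 16 and kept its call in 3 of them. Krt19 changed sign on slide 1 alone (0.023) and stayed negative otherwise. The count of called members was 1 on slide 1 alone and between 1 and 2 when any 1 array was left out; it was 2 in the fit with litter pair as replicate block. Calls over all genes numbered 279, against 497 with litter pair as block, 539 with slide as block, 130 on slide 1 alone, 132 with no filter on dim probes and between 62 and 195 without any 1 array. The genotype by slide interaction called 1 gene, and 0 with normexp correction, 0 with no filter and 0 with probes measured on every array (limma; 1263, 3369 and 1294 at an unadjusted p under 0.05). Normexp used median spot signals in place of the mean signals first planned, and it and the alternatives to the interaction were chosen after seeing the data. The cause of these changes was not tested, except that slide 1 and left-out arrays mean fewer samples and no filter more genes. Signal over background limits Isl1, Piezo2 and the 4 dim factors.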
